A study of Mus musculus with 9 samples.

Results

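Haematopoietic stem cells (HSCs) sorted from the bone marrow of old mice were compared with those of young mice, both given saline. The comparison takes the 6 libraries titled as saline, 3 from young and 3 from old mice, out of 9 in the series. The other 3 libraries, from old mice given BRL37344, enter only the choice of genes to test and the estimate of the spread between libraries. The series asks how the nerves that reach the marrow bear on the ageing of the HSC niche.

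All mice were C57BL/6 and carried subcutaneous osmotic pumps for 12 weeks, with a second pump placed after 6 weeks. The saline young group was 2 months old and the saline old group 15 to 20 months old, ages that the labels give in the account of the pump placement; the ages at which the HSCs were collected are not given. BRL37344, an agonist of the β3-adrenergic receptor, went into the third group at a daily dose of 2.4 mg per kg. Each library was made from about 2000 sorted HSCs; the surface markers of the sort are not given in the sources used here. Whether the 3 libraries of each group stem from different mice is not stated; a p-value here covers the spread from library to library, part of which may be technical.

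HSCs renew themselves and give rise to all blood lineages. In mice they become more numerous with age, favour platelet and myeloid output over lymphoid output, and repopulate a recipient less well per cell. Surface and secreted proteins otherwise known from platelets and endothelium are among the transcripts long described as higher in aged mouse HSCs.

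The values are RPKM, reads per kilobase of transcript and per 1000000 reads, so levels can be set beside each other between genes. In every list of values below, saline young 1, 2 and 3 come first and saline old 1, 2 and 3 second. A log2 change is the mean of log2(RPKM + 0.5) in saline old minus that in saline young, given with its standard error (SE); the added 0.5 understates the change of low genes. A gene is said to have risen or fallen where its adjusted p (limma, Benjamini-Hochberg over all 13516 tested genes) was 0.05 or less. The spread behind that p includes the BRL37344 libraries, so scatter among them can keep a gene from passing. The implied depth, in units of 1000000 reads, was 12.2 to 22.4 in the young libraries and 15.3 to 41.4 in the old, and 12575 to 12965 genes reached 1 RPKM in each.

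Old HSCs differed from young ones in 213 genes, 1.58% of those tested, with more rises than falls and a larger median change among the rises. The balance of numbers turned without saline old 1, with 170 rises and 416 falls, and with sample quality weights, with 516 and 768. The 159 genes that rose were 1.18% of those tested and had a median log2 change of 1.81; 67 of them rose more than 4-fold and 27 more than 8-fold. The 54 that fell were 0.4% of those tested, with a median log2 change of -1.44, and 10 of them fell more than 4-fold. The median over all tested genes was -0.02. The 3 old libraries lay wholly apart from the 3 young in all 213 called genes, and in 20.3% of all tested genes, with old higher in 9.39% and lower in 10.9%. Among the genes that rose, 40 had a mean under 1 RPKM in young HSCs, while 9 of those that fell had a mean under 1 RPKM in old HSCs. By annotation, 143 of the rises and 51 of the falls were in protein-coding genes, and 5 and 2 in long non-coding RNAs.

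**Figure D1:**
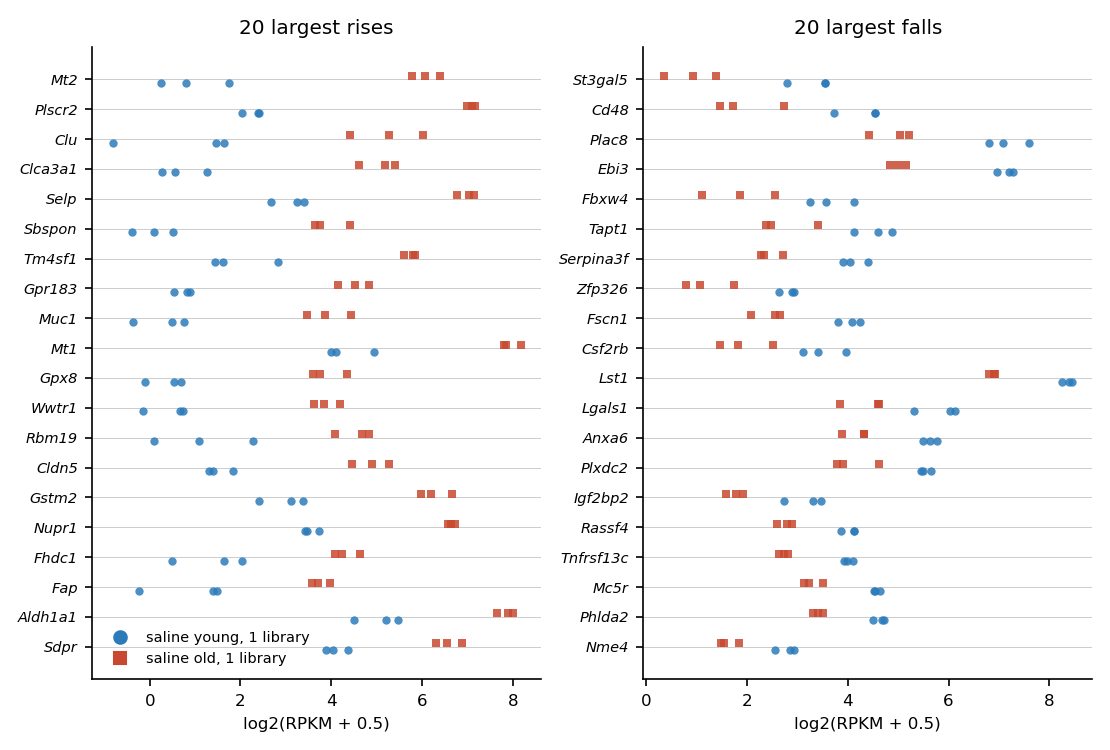
Level of the 20 largest rises (left) and 20 largest falls (right) in each saline library, as log2(RPKM + 0.5), among called genes with a mean level of at least 2 on that scale. Blue points are the 3 young and red squares the 3 old libraries; in every gene shown the groups lie wholly apart, which the choice of called genes favours.

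**Figure D2:**
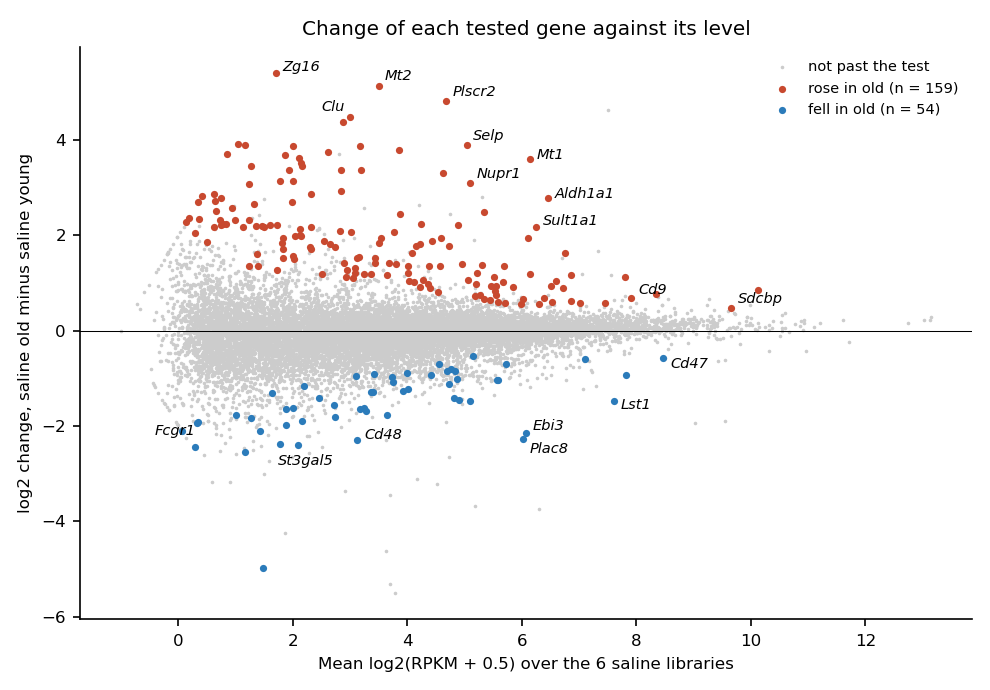
Log2 change of each of the 13516 tested genes (vertical axis) against its mean log2(RPKM + 0.5) over the 6 saline libraries (horizontal axis). The 159 rises (red) reach a log2 change of 5.41 for Zg16, and the 54 falls (blue) reach -4.97 for the predicted gene Gm24786; grey points did not pass the test.

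The metallothioneins, small cysteine-rich proteins that bind zinc and copper and are induced by metals, glucocorticoids and oxidative stress, gave the largest rise of any gene named by rule. Mt2 read 0.693, 1.25 and 2.88 RPKM in the young libraries and 67.0, 83.5 and 54.3 RPKM in the old (log2 change 5.14 ± 0.43 SE, limma adjusted p = 0.000251). Mt1 read 15.5, 16.6 and 30.4 RPKM in young and 231, 288 and 223 RPKM in old (log2 change 3.6 ± 0.26 SE, limma adjusted p = 0.000153). For both genes the lowest old library stood far above the highest young one. The pair lies side by side on chromosome 8, Mt2 at chr8:94172618-94173567 and Mt1 at chr8:94178883-94180327 (RefSeq, GRCm38.p6), 5315 bases apart. Mt3, the third tested member of the family, had a log2 change of 1.28 and did not pass (limma adjusted p = 0.173), with no more than 1.35 RPKM in any saline library. Of 19 tested genes for metallothioneins and zinc handling, Mt1 and Mt2 were the only ones that passed, and the median of the list was -0.14.

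The 250 bases before the start of Mt2 are shown because they hold several matches to TGCNCNC, a loose form of the core of the metal response element. The zinc-sensing transcription factor MTF1 binds that element. The stretch covers chr8:94172368-94172617 on the plus strand, from the RefSeq promoter table for GRCm38.p6, with each match in capitals.

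Mt2 promoter: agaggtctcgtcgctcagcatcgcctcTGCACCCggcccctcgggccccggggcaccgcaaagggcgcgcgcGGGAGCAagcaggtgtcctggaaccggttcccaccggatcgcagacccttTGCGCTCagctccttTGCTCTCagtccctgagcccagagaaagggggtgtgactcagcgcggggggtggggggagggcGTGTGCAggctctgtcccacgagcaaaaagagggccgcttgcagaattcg

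The window holds 5 matches, 3 on the plus strand and 2 on the minus strand, where the core reads as its reverse complement; no match overlaps another. At least 5 matches occur in 0.344% of the 32851 RefSeq windows of this length, and at least 1 in 44.4%. Windows of genes that rose held at least 1 in 48.2% of 137 cases, those of genes that fell in 48.4% of 62, and those of all tested genes in 52.0%. At least 5 occurred in 1.46% of the windows of genes that rose and 3.23% of those of genes that fell, which is 2 windows each, and in 0.486% of those of all tested genes. The Mt2 window is itself 1 of those 2 among the genes that rose. The Mt1 window held 1 match, with 206 of its bases inside the annotated gene, and is not shown. A match describes the letters only.

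The phospholipid scramblases, membrane proteins of which the best known moves lipids between the leaflets of the plasma membrane, rose in a neighbouring pair. Plscr2 read 4.70, 4.80 and 3.58 RPKM in young and 142, 127 and 137 RPKM in old libraries (log2 change 4.81 ± 0.23 SE, limma adjusted p = 1.28e-05). Plscr1, which starts at position 92250194 of chromosome 9 and ends 3040 bases before Plscr2, read 32.1, 34.5 and 39.3 RPKM in young and 81.1, 70.5 and 65.0 RPKM in old (log2 change 1.02 ± 0.16 SE, limma adjusted p = 0.0124). In young HSCs Plscr1 stood above Plscr2 in all 3 libraries, and in old HSCs it stood below Plscr2 in all 3. Plscr3 and Plscr4 did not pass, with log2 changes of -0.24 and 0.51. As Plscr1 and Plscr2 are close in sequence, as are the Gstm genes and Mt1 with Mt2, the way reads were shared between copies could move their values.

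Neighbouring genes called in the same direction were few, with 6 pairs among 7057 adjacent tested pairs, all of them rises. Besides the metallothioneins and scramblases they were Entpd2 with Npdc1 and Kcnip3 with Prom2 on chromosome 2, Arhgap29 with Abca4 on chromosome 3, and Cd9 with Vwf on chromosome 6. The gaps ran from 1726 bases between Entpd2, an ectonucleotidase that removes phosphate from ATP outside the cell, and Npdc1, to 58187 bases between Cd9 and Vwf.

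Some of the genes that platelets and their precursors use for adhesion were higher in old HSCs, and others did not pass. Selp encodes P-selectin, which platelets and endothelium present to leukocytes; it read 9.98, 8.95 and 5.83 RPKM in young and 142, 129.9 and 109 RPKM in old libraries (log2 change 3.89 ± 0.28 SE, limma adjusted p = 0.000153). Vwf, the blood clotting protein von Willebrand factor that carries platelets to damaged vessels, read 40.4, 21.0 and 49.3 RPKM in young and 149.6, 139 and 119 RPKM in old (log2 change 1.94 ± 0.34 SE, limma adjusted p = 0.0211). Itgb3, the β3 integrin chain that with Itga2b forms the platelet fibrinogen receptor, rose by 1.95 ± 0.19 SE on the log2 scale, and its partner Itga2b read 24.8, 26.3 and 17.1 RPKM in young and 47.1, 38.1 and 42.8 RPKM in old without passing (limma adjusted p = 0.271). Clu, which encodes the secreted chaperone clusterin, read 0.0686, 2.62 and 2.23 RPKM in young and 64.8, 38.1 and 21.0 RPKM in old. None of these 5 genes overlapped between the groups, which held for all 213 called genes and for 20.3% of all tested genes.

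Of 27 tested megakaryocyte and platelet genes, 6 rose and none fell, against 1.18% and 0.4% of all tested genes. This and the other gene lists were drawn up with earlier results of these data known, and some share members. A share above that of all tested genes is therefore not independent support. Their median log2 change was 0.44 against -0.02 over all genes. Clu, Itgb3, Selp and Vwf, which rose, also belong to the aged HSC signature described below. The remaining 2 that rose were Cd9, a tetraspanin of platelets and HSCs, and Plek, a substrate of protein kinase C in platelets, with log2 changes of 0.68 and 1.18. The platelet adhesion glycoprotein genes Gp1ba, Gp9 and Gp5 had log2 changes of 0.96, 0.64 and -0.46 and did not pass, and of 9 tested markers in the shorter megakaryocyte list 1 rose, Vwf, and 3 were negative. Gp9 read 48.6, 49.3 and 47.2 RPKM in young and 71.1, 80.4 and 75.1 RPKM in old. The BRL37344 libraries, which enter its spread, read 51.5, 46.6 and 83.7 RPKM. Pf4, the chemokine of platelet granules, read 215, 245 and 100.4 RPKM in young and 148, 369.7 and 433 RPKM in old, and Ppbp, another granule chemokine, had a log2 change of -0.85 (limma adjusted p = 0.0941). Selp, Itgb3 and Clu passed in all 6 fits that left out a library. In bulk libraries, more cells of a type and more RNA per cell cannot be told apart.

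Of 24 tested surface genes shared with endothelium or used at cell junctions, 5 rose and none fell, against 1.18% and 0.4% of all tested genes. In the list 16 changes were positive and 8 negative. Every old library lay above every young one in 9 members and below in 4. Jam2, Sdpr and Tm4sf1 also belong to the aged HSC signature. Tm4sf1, a tetraspanin-like protein of endothelium, read 6.61, 2.23 and 2.55 RPKM in young and 55.2, 57.3 and 48.4 RPKM in old. Cldn5, the main tight junction claudin of vessels, read 1.96, 2.14 and 3.08 RPKM in young and 38.2, 29.6 and 21.5 RPKM in old. Both pairs of groups were wholly apart, with log2 changes of 3.79 ± 0.34 SE and 3.37 ± 0.33 SE and limma adjusted p-values of 0.000340 and 0.000643. Sdpr, a caveola coat protein, and Jam2, a junctional adhesion molecule, rose by 2.49 and 1.84 on the log2 scale. Ramp2, which makes the calcitonin-like receptor respond to adrenomedullin, rose by 2.08. It read 6.03, 6.40 and 6.05 RPKM in young and 54.6, 18.9 and 20.4 RPKM in old libraries. Of the 6 fits that left out a library it passed in only 1, the fit without saline old 1. Other endothelial markers did not pass: Pecam1 had a log2 change of -0.10, Egfl7 of -0.07 and Tek of -0.11.

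Several receptor genes rose, some from a low start. Gpr183, which senses oxysterols and guides migrating leukocytes, read 1.34, 0.948 and 1.26 RPKM in young and 27.9, 22.3 and 17.2 RPKM in old libraries (log2 change 3.75 ± 0.23 SE, limma adjusted p = 7.56e-05). Ackr1, an atypical receptor that binds chemokines without signalling, read 0.345, 0.291 and 1.07 RPKM in young and 14.9, 12.1 and 10.8 RPKM in old (log2 change 3.68 ± 0.55 SE, limma adjusted p = 0.00946). Cysltr2, a receptor for cysteinyl leukotrienes, was tight within both groups, at 9.71, 9.20 and 8.68 RPKM in young and 34.6, 30.9 and 32.2 RPKM in old. Hpgds, which makes prostaglandin D2 in blood cells, rose by 1.43 ± 0.23 SE. Those were the 2 of 15 tested eicosanoid and leukotriene genes that passed. Bmpr1a, a receptor for bone morphogenetic proteins, read 0.655, 0.126 and 0.182 RPKM in young and 4.16, 2.54 and 3.19 RPKM in old (log2 change 2.24 ± 0.33 SE, limma adjusted p = 0.00847). It was the only gene that rose among 43 tested in the cytokine receptor list, which also holds Socs2, an inhibitor of cytokine signalling. In that list Csf2rb, described below, fell, and the median was -0.11. Gprc5c, an orphan receptor whose expression is linked to HSC dormancy in mice, rose by 2.22 ± 0.32 SE from a mean under 1 RPKM.

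Adhesion and homing receptors split by member: 6 of 31 rose and 1 fell, against 1.18% and 0.4% of all tested genes. The median of the list was 0.03. Those that rose were Selp, Ackr1, Itgb3, Jam2, Cd9 and Alcam, the last an immunoglobulin-family adhesion molecule that read 14.2, 8.72 and 8.23 RPKM in young and 28.5, 22.9 and 21.4 RPKM in old. Cd47, the signal by which cells escape uptake by macrophages, was the member that fell, from 442, 408 and 451 RPKM to 293, 314 and 268 RPKM (log2 change -0.57 ± 0.10 SE, limma adjusted p = 0.0175). Its groups did not overlap, and it passed in 2 of the 6 fits that left out a library.

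Enzymes of detoxification and oxidant defence rose in 3 of 36 tested members, against 1.18% of all tested genes. Gstm2, a glutathione transferase of the mu class, read 9.87, 8.2 and 4.79 RPKM in young and 62.8, 101 and 72.5 RPKM in old (log2 change 3.31 ± 0.31 SE, limma adjusted p = 0.000617). The rise was uneven within its class: Gstm7 rose by 1.04 ± 0.15 SE, while Gstm1, Gstm4 and Gstm5 had log2 changes of 0.55, -0.02 and 0.39 and did not pass. Gstt1, of the theta class, rose by 0.97 ± 0.14 SE. Outside the list, Gpx8, a peroxidase of the endoplasmic reticulum, read 1.11, 0.949 and 0.436 RPKM in young and 11.6, 20.0 and 13.0 RPKM in old. Sult1a1, a sulfotransferase for phenols, read 41.8, 32.1 and 32.8 RPKM in young and 199, 135 and 156 RPKM in old (log2 change 2.17 ± 0.16 SE, limma adjusted p = 0.000153). Aldh1a1, which oxidises retinaldehyde to retinoic acid, read 43.6, 36.6 and 22 RPKM in young and 199.9, 255 and 238 RPKM in old (log2 change 2.79 ± 0.23 SE, limma adjusted p = 0.000209). It was the single tested member of its subfamily, and in the list of retinoic acid metabolism 1 of 14 members rose and 1, the dehydrogenase gene Dhrs7, fell.

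Stress regulators and metabolism gave single members and no broad movement. Nupr1, a stress-induced regulator of transcription, read 10.3, 10.6 and 12.9 RPKM in young and 94.4, 99.7 and 106 RPKM in old (log2 change 3.10 ± 0.20 SE, limma adjusted p = 9.05e-05), and was the 1 member of 27 in the unfolded protein response list that passed. Gadd45g, a growth arrest and DNA damage gene, rose by 2.06 ± 0.40 SE, and Gadd45a and Gadd45b had log2 changes of 0.13 and 0.19. It was the 1 of 23 tested p53 targets that passed, and it passed in only 1 of the 6 fits that left out a library. Hk2 and Pfkp, a hexokinase and a phosphofructokinase that catalyse the early committed steps of glycolysis, rose by 1.19 ± 0.22 SE and 0.64 ± 0.13 SE, as 2 of 26 tested glycolysis genes. Atg4b, a protease that prepares the coat protein of autophagosomes, rose by 0.72 ± 0.15 SE, as 1 of 32 autophagy and lysosome genes.

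Several genes with other known roles were among the largest rises. Muc1, a membrane mucin, read 1.19, 0.271 and 0.909 RPKM in young and 14.2, 21.1 and 10.6 RPKM in old. Wwtr1, which encodes the Hippo pathway co-activator TAZ, read 1.17, 0.409 and 1.10 RPKM in young and 17.8, 13.9 and 11.7 RPKM in old (log2 change 3.46 ± 0.29 SE, limma adjusted p = 0.000217). Every old library of both genes lay above every young one. Clca3a1, a secreted regulator of a calcium-activated chloride channel, Sbspon, a matrix protein with somatomedin B and thrombospondin repeats, and Fap, a cell-surface protease of activated fibroblasts, rose by 4.38, 3.86 and 2.87 on the log2 scale. Fap passed in 2 of the 6 fits that left out a library, and Clca3a1 and Sbspon in all 6. Cd38, an enzyme that consumes NAD and marks a subset of HSCs, read 14.5, 7 and 8.30 RPKM in young and 44.9, 35.2 and 26.6 RPKM in old. Zg16, a lectin of secretory granules, had the largest rise of all tested genes but was outside the level limit for named genes and was singled out after its values were seen: it stood at the floor of the table in all 3 young libraries and read 20.2, 27.2 and 16.1 RPKM in old.

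By amount of RNA, the largest rises mixed steep and moderate folds. Sdcbp, Mt1 and Aldh1a1 gained the most RPKM, and Plscr2, Sult1a1 and Selp, described above, were also among the 10 largest gains. Sdcbp, the scaffold protein syntenin, read 683, 701 and 655 RPKM in young and 991, 996 and 858 RPKM in old (log2 change 0.48 ± 0.09 SE, limma adjusted p = 0.0357). S100a6, a calcium-binding protein, read 144, 142 and 170.0 RPKM in young and 411, 276 and 321 RPKM in old, and none of the 8 other tested S100a genes passed. Tsc22d1, a transcription regulator responsive to TGF-β, read 333, 218 and 210.3 RPKM in young and 438, 411 and 430.1 RPKM in old. The lowest old library lay above the highest young one in all 3 genes. Enpp5, a nucleotide pyrophosphatase family member, combined a high level with tight replicates, at 70.9, 53.4 and 59.2 RPKM in young and 191, 197 and 182 RPKM in old (log2 change 1.64 ± 0.13 SE, limma adjusted p = 0.000209).

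Among the falls, the surface protein Cd48 and several genes of progenitors and leukocytes stood out. St3gal5, the sialyltransferase that makes the ganglioside GM3, read 6.42, 11.2 and 11.2 RPKM in young and 2.13, 1.4 and 0.776 RPKM in old libraries (log2 change -2.40 ± 0.35 SE, limma adjusted p = 0.00853); the 5 other tested ST3 sialyltransferases did not pass. Cd48, a SLAM-family ligand whose absence is used to sort primitive HSCs, read 12.8, 22.8 and 22.7 RPKM in young and 2.80, 2.27 and 6.20 RPKM in old (log2 change -2.29 ± 0.35 SE, limma adjusted p = 0.00957). Plac8, a cysteine-rich protein of myeloid progenitors and leukocytes, read 111, 135 and 193 RPKM in young and 20.8, 32.3 and 36.4 RPKM in old (log2 change -2.27 ± 0.24 SE, limma adjusted p = 0.000995). In each of the 3 genes the lowest young library lay above the highest old one. Slamf1, which encodes the CD150 protein used with Cd48 to define HSCs, read 13.9, 21.4 and 23.3 RPKM in young and 41.6, 38.6 and 29.4 RPKM in old and did not pass (log2 change 0.90, limma adjusted p = 0.173).

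Several immune genes were among the named falls. Lst1, a leukocyte transcript encoded within the major histocompatibility complex, read 347, 302 and 334 RPKM in young and 112, 119.8 and 119 RPKM in old (log2 change -1.48 ± 0.22 SE, limma adjusted p = 0.00863). Ebi3, the chain shared by interleukins 27 and 35, read 124, 147 and 154 RPKM in young and 35, 28 and 31.3 RPKM in old (log2 change -2.16 ± 0.34 SE, limma adjusted p = 0.0111). Rnase6, an antimicrobial ribonuclease, read 66.4, 70.7 and 68.3 RPKM in young and 28.2, 36.9 and 35.4 RPKM in old. The spread within each group was small beside these differences. Csf2rb, the chain common to the receptors for interleukin 3, interleukin 5 and GM-CSF, read 8.19, 10.1 and 15.2 RPKM in young and 5.24, 2.27 and 3.03 RPKM in old (log2 change -1.56 ± 0.31 SE, limma adjusted p = 0.0399); it too has a close paralog. Tnfrsf13c, through which BAFF keeps B cells alive, fell by 1.28 on the log2 scale, and Fcgr1, a high-affinity receptor for immunoglobulin G, fell by 1.93 from 2.87, 1.94 and 1.31 RPKM to values of 0.246 RPKM or less.

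Further falls included cytoskeletal genes. Of 28 tested genes of small GTPases, polarity and cytoskeleton, 3 fell and 1, S100a6, rose, with a median of -0.12; over all genes 0.4% fell and 1.18% rose. Fscn1, which bundles actin filaments, read 13.6, 16.5 and 18.4 RPKM in young and 5.40, 5.76 and 3.70 RPKM in old (log2 change -1.62 ± 0.22 SE, limma adjusted p = 0.00490). Lgals1, the lectin galectin-1, and Anxa6, a membrane-binding annexin, fell by 1.47 and 1.46 on the log2 scale, while the 8 other tested annexins did not pass. Igf2bp2, an RNA-binding protein of the fetal growth programme in mice, read 10.5, 6.13 and 9.42 RPKM in young and 3.30, 2.48 and 2.93 RPKM in old (log2 change -1.41 ± 0.27 SE, limma adjusted p = 0.0289). Phlda2, an imprinted gene that restrains placental growth, fell by 1.22 ± 0.19 SE, and Ndn, an imprinted gene that restrains cell division, rose by 0.69 ± 0.13 SE. Foxn3, a forkhead repressor, read 68.9, 65.3 and 66.9 RPKM in young and 41.9, 28.2 and 28.9 RPKM in old. Mc5r, a melanocortin receptor coupled to cyclic AMP, read 22.8, 24.3 and 22.5 RPKM in young and 8.21, 8.93 and 10.9 RPKM in old (log2 change -1.27 ± 0.19 SE, limma adjusted p = 0.00957).

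**Figure D3:**
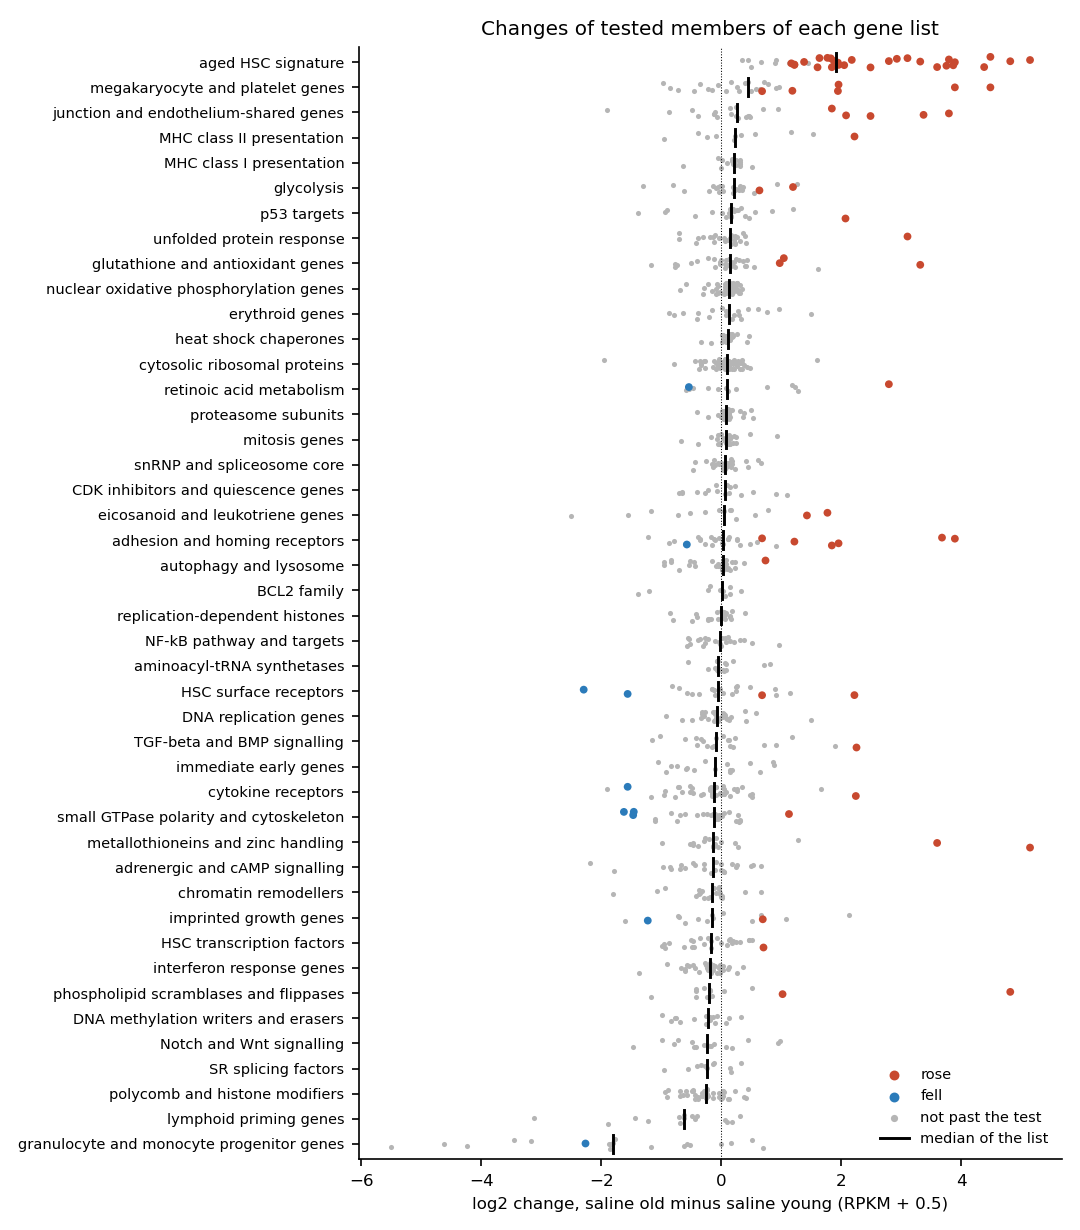
Log2 change of each tested member (points) of the gene lists, with the median of each list as a black bar. The aged HSC signature lies to the right, with 28 of 36 members that rose and a median of 1.91, and the granulocyte and monocyte progenitor list to the left, with a median of -1.80, or -0.90 without saline young 3, and 1 member that fell.

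Of the gene lists, the aged HSC signature held the most calls. It was compiled from transcripts known to be higher in aged mouse HSCs, with earlier results of these data known, so its direction is not independent support. There 28 of 36 tested members rose, with no falls, against 1.18% of all genes, and 23 of the 28 passed in all 6 fits that left out a library. The lowest change in the list was 0.35 and the median 1.91. Its mean log2(RPKM + 0.5) was 2.83, 2.74 and 2.71 in the young libraries and 5.23, 5.04 and 4.87 in the old, with no overlap. Of 27 tested HSC transcription factors, 1 rose, Ndn, and none fell. In the list 16 of 27 changes were negative, with a median of -0.16. Mecom, a regulator of HSC self-renewal, read 33.4, 29.5 and 39.2 RPKM in young and 50.4, 25.5 and 40.7 RPKM in old. Outside the transcription factors, Procr, which encodes a receptor for protein C that is widely used to mark HSCs, read 36.2, 35.3 and 34.7 RPKM against 45.2, 35.3 and 40.1 RPKM.

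Interferon response genes (36 tested, median -0.18), NF-kB pathway genes (25, median -0.03), mitosis genes (31, median 0.08), DNA replication genes (31, median -0.08) and inhibitors of cyclin-dependent kinases with quiescence genes (17, median 0.06) had no member that passed the limma test. The same held for cytosolic ribosomal proteins (77, median 0.10), proteasome subunits (37, median 0.09), nuclear genes of oxidative phosphorylation (78, median 0.14), DNA methylation enzymes (16, median -0.22), polycomb and histone modifiers (45, median -0.25) and adrenergic and cyclic AMP signalling (26, median -0.14). A missed threshold with 3 libraries a group does not show that these genes were alike. In the MHC class II list 1 of 11 genes rose: H2-Eb1, a β chain, read 13.0, 18.3 and 9.85 RPKM in young and 58.9, 74.7 and 57.4 RPKM in old. H2-Aa, the α chain of the other class II molecule, had a log2 change of 1.52 and did not pass (limma adjusted p = 0.0848).

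Lymphoid and myeloid priming genes had negative medians with few calls. The 15 tested lymphoid priming genes had a median of -0.62, 11 were negative and none passed; Flt3, the receptor of lymphoid-primed progenitors, read 34.2, 27.4 and 30.1 RPKM in young and 28.6, 21.5 and 10.1 RPKM in old. The 19 granulocyte and monocyte progenitor genes had a median of -1.80, and Plac8 was the member that fell. Without saline young 3 the median was -0.90, with Plac8 again lower and Prtn3, a neutrophil granule protease, called higher. The mean log2(RPKM + 0.5) of the progenitor list was 3.52, 4.62 and 6.25 in young and 2.78, 3.10 and 3.14 in old. Its order was that of the neutrophil markers over the young libraries and the reverse over the old. Mpo belongs to both lists, so they are not independent. The 13 neutrophil markers were all lower on average in old HSCs and none passed, and the young libraries stood far from each other. Their mean log2(RPKM + 0.5) was 4.20, 5.36 and 7.78 in young and 3.59, 3.24 and 3.12 in old. In 9 of the 13 every old library lay below every young one. Their median log2 change was -1.93, and -0.76 without saline young 3. Camp, a neutrophil granule peptide, read 25.6, 57.8 and 1460.1 RPKM in young and 16.9, 12.7 and 4.19 RPKM in old, with saline young 3 far above the rest. Mpo read 24.97, 77.4 and 404.6 RPKM in young and 1.89, 1.35 and 1.44 RPKM in old. Mpo was called lower in a fit, chosen after the data were seen, without saline young 3 and the second BRL37344 library. Summed over the 13 markers, the level was 1083, 1747 and 19620 RPKM in young and 908.8, 690.2 and 682.9 RPKM in old, and Ly6g, which defines the lineage, stood at the floor in saline young 1. The mean of 12 monocyte and macrophage markers was 2.92, 3.74 and 4.34 in young and 2.33, 2.72 and 2.28 in old, with Fcgr1 the 1 member that passed. Plac8 followed the order of the neutrophil markers over the 3 young libraries and the reverse order over the 3 old ones, and the part of such cells in its fall was not tested.

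**Figure D4:**
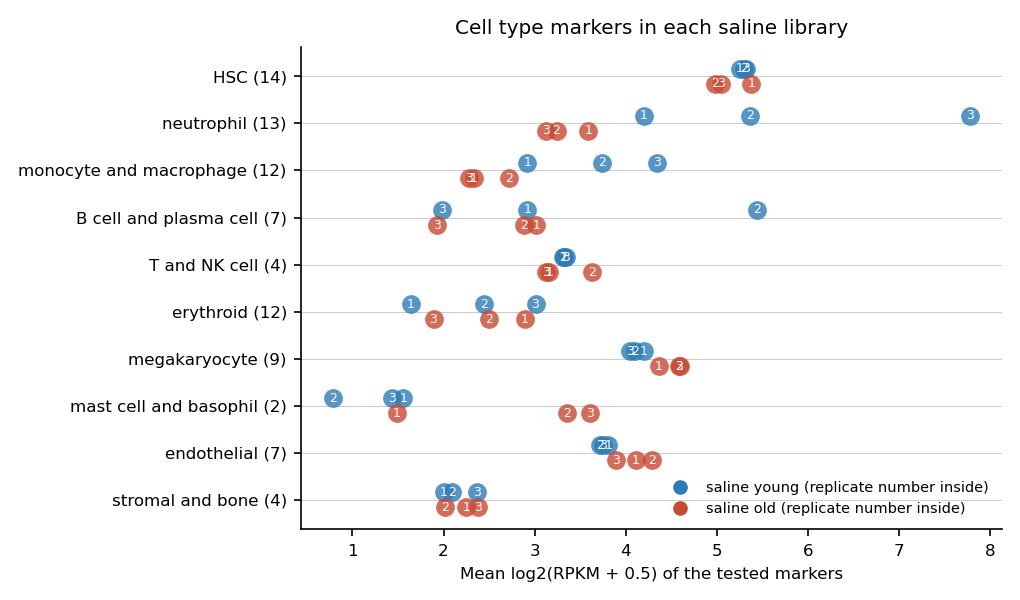
Mean log2(RPKM + 0.5) of the tested markers of each cell type (number of markers in brackets) in each saline library, with the replicate number in the point. The HSC marker list, which includes Cd48 and Flt3, lies between 4.98 and 5.38 in all 6 libraries. Neutrophil markers range from 3.12 in saline old 3 to 7.78 in saline young 3.

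The mean log2(RPKM + 0.5) of 14 genes in the HSC marker list was 5.25, 5.30 and 5.32 in young and 5.38, 4.98 and 5.05 in old. That list includes Cd48 and Flt3, described above in other roles, so its mean does not measure the purity of the sort. Ly6a, the Sca-1 antigen, and Kit, the stem cell factor receptor, were at 183.6 RPKM or more in all 6 libraries. Other markers stood out in only some of the libraries. Igkc, an immunoglobulin light chain, read 1330.1 RPKM in saline young 2 and 57.2 RPKM or less in the other 5, and Fcer1a, a receptor chain of mast cells and basophils, read 7.97 and 8.90 RPKM in saline old 2 and 3 and 0.982 RPKM or less in the other 4. Without saline young 3 and the second BRL37344 library, the 2 highest in neutrophil markers, 72 genes rose and 10 fell.

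Of the libraries, saline old 1 mattered most for the falls. When the libraries were left out singly, 67 of the rises (0.496% of tested genes) but 7 of the falls (0.0518%) passed in all 6 fits; the falls of the named genes that did so were St3gal5, Plac8, Lst1, Fscn1, Rnase6 and Foxn3. Among the other called genes described above, Cd48, Tnfrsf13c and Abca4 passed in 5 of the 6 fits and Mc5r, Hpgds and Arhgap29 in 4. Plscr1, Plek, Alcam, Ebi3, Lgals1 and Phlda2 passed in 3, and Vwf, Prom2, Atg4b, Fap, Cd47, Igf2bp2, H2-Eb1 and Sdcbp in 2. Cd9, Kcnip3, Ramp2, Gadd45g, S100a6, Tsc22d1, Ndn, Hk2, Pfkp, Csf2rb, Anxa6 and Fcgr1 passed in 1, and Dhrs7 in none. Without saline old 1 the rises were 1.26% of tested genes and the falls 3.08%. Of the 416 falls, 368 had not passed with all libraries, and for these saline old 1 lay within the range of the young libraries in 171 and above it in 59. Their median log2(RPKM + 0.5) was 4.40 in young, 4.33 in saline old 1, and 3.21 and 3.03 in saline old 2 and 3.

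Among the genes that passed as lower without saline old 1, but not with all libraries, were regulators of HSCs. Hlf, a transcription factor characteristic of HSCs, read 147, 106 and 128 RPKM in young, 106 RPKM in saline old 1, and 54.0 and 49.4 RPKM in saline old 2 and 3; its log2 change was -0.94 with all libraries (limma adjusted p = 0.183) and -1.28 without saline old 1 (limma adjusted p = 0.0214). Socs2, a feedback inhibitor of cytokine signalling, read 46.8, 47.1 and 54.1 RPKM in young, 24.4 RPKM in saline old 1, and 8.75 and 9.59 RPKM in the other old libraries. Cdkn1c, the cell cycle inhibitor p57, read 40.5, 27.1 and 45.9 RPKM in young, 54.0 RPKM in saline old 1, and 16.1 and 13.0 RPKM in saline old 2 and 3. For Cdkn1c the old libraries thus lay on both sides of the young ones. Dnmt3a, a DNA methyltransferase that limits HSC self-renewal, Runx1, a master transcription factor of blood, and Rac1, a small GTPase of adhesion and migration, had log2 changes of -0.98, -0.87 and -1.11 with all libraries and -1.15, -1.01 and -1.74 without saline old 1, and passed in the latter fit and not in the former.

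In the principal components of all tested genes the groups parted on the first, which held 36.1% of the variance, while saline young 1 and saline old 1 shared one side of the second, which held 21.8%. These were the shallowest library of each group, at an implied 12.2 and 15.3 (units of 1000000 reads), and each was the farthest of its group from the other members in the most genes, 41.5% and 45.2%. The part of depth or of the sort in this was not tested.

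**Figure D5:**
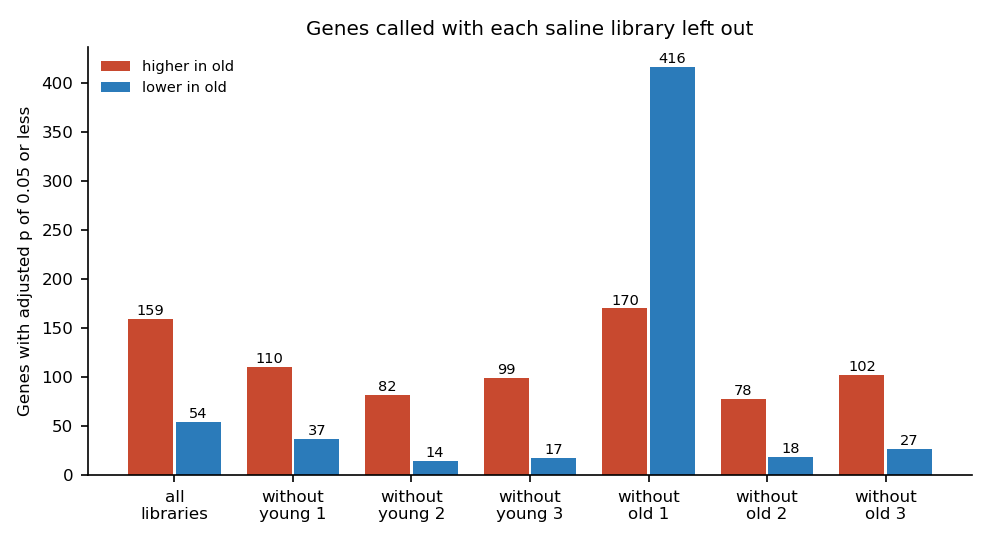
Number of genes higher (red) and lower (blue) in old at a limma adjusted p of 0.05 or less, with all libraries and with each saline library left out. Calls fall in every case but one; without saline old 1 the lower genes number 416 instead of 54.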

How the data were processed

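The authors' deposited table is named for counts but holds RPKM values, as read from the values themselves; FPKM would look the same. Tools named in the submitters' processing notes are STAR 2.5.3a, Trim Galore and Partek, with the build mm10. Per the labels, cDNA came from a SMART-Seq v4 kit and libraries from a Nextera XT kit. Groups come from the sample titles, since the descriptions carry 1 shared tag for all groups. Of 46628 rows, 2 named no gene and 27 carried names turned into dates; 59.3% of values stood at the table's floor.

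Depth was inferred from single-read steps in 7470 genes of 1 annotated transcript, where 84.4% to 88.2% of low values lay within 0.05 of a whole read. It limits the precision of low genes in the shallow libraries. Genes at 1 RPKM or more in at least 3 of the 9 libraries were tested (13516) in limma 3.58.1 (R 4.3.3). The fit used log2(RPKM + 0.5), trend and robust empirical Bayes, 1 model of the 3 group means with 6 residual degrees of freedom, and Benjamini-Hochberg adjustment. The fit was tried on simulated data with independent noise for each gene and library. Such data hold no outlying library, so the trial cannot speak to the effect of saline old 1. RefSeq (GRCm38.p6) gave positions for 12811 of the tested genes (94.8%), matched by symbol.

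Named genes were the 20 largest rises and 20 largest falls that were called and had a mean log2 level of 2 or more, the 10 largest differences in RPKM each way, called members of 54 gene lists (or the 2 with the smallest p), cell type markers, and called neighbours. The members and lists were chosen with earlier results of these data known. Of uncalled genes found by this rule, only some are printed. Genes described without saline old 1 were chosen after their values were seen. Alternatives were other scalings, pseudocounts, filters, weights, the 6 libraries alone, a replicate block and each library left out.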

Additional observations from a re-analysis of the deposited data

How the results depend on the processing

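Of 213 calls (159 higher, 54 lower), other scalings, pseudocounts, the 6 saline libraries alone, a 5 RPKM filter and a mean filter gave 179 to 218. Similar totals did not mean the same genes. The 6 saline libraries alone gave 203 calls (142 higher, 61 lower), of which 171 were among the 213. With no filter, 131 genes were called (95 higher), over 25246 genes tested. Sample quality weights gave 1284 (516 higher, 768 lower), with a weight of 0.483 for saline old 1 and 3.051 for saline old 2. Leaving out each library gave 96 to 586 calls, 78 to 170 of them higher and 14 to 416 lower. Where an alternative chosen after seeing the data left out the 2 libraries highest in neutrophil markers, 82 were called (72 higher, 10 lower). Without saline old 1 and saline young 3 together, also chosen afterwards, 119 were called (66 higher). Why the counts moved was not tested.

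With the replicate number as a block, 174 genes were called (135 higher, 39 lower), 159 of them among the 213. Same-numbered libraries deviated together with correlations of 0.105, -0.008 and 0.007, so the numbers were not taken to pair the samples.

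Of 1714 values of the 86 called named genes under these alternatives, none turned its direction while called, and 386 no longer passed. Of 2570 values of 130 named genes that were not called, 75 passed under an alternative. The shallowest library, at an implied 12.2 (units of 1000000 reads), limits genes near 1 RPKM.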
